A study of Mus musculus with 24 samples.

Results

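The astrocytes of the non-telencephalic type were studied in nuclei from the deep brain of 12 mice, 6 of the genotype *Pdgfb* ret/ret (mutants) and 6 of the genotype *Pdgfb* ret/wt (controls). The rule found 7671 of them among 124958 deep brain nuclei (6.14%), 4370 in mutants and 3301 in controls, of 204925 nuclei kept in the whole series. A nucleus counted as an astrocyte when *Slc39a12*, *Ntsr2*, *Gja1*, *Aqp4* and *Atp13a4* together had at least 5 unique molecular identifiers (UMIs, 1 per captured RNA molecule). It was placed in the non-telencephalic type when *Agt*, *Itih3* and *Slc6a11* together had at least 2 UMIs and more than *Lypd6*, *Emx2os*, *Thbs4* and *Myoc*. Nuclei with a UMI of *Rbfox3* (neurons) or *Csf1r* (microglia) were left out, and so were those with more than 1 UMI of *Mog*, *Mag* and *Mobp* (oligodendrocytes) or more than 2 of *Dnah12* and *Cfap299* (ependymal cells). These 19 genes chose the members, so their levels are given as a description with no test.

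Every animal, controls included, carried at least 1 ret allele of *Pdgfb* in all its cells, a form of the growth factor PDGF-B that lacks the motif holding it near the endothelium, and no wild-type mouse was among the samples. The strain was B6.Pdgfbtm3Cbet. By the study all mutants and 5 controls were female, and 1 control was male. The labels give an age of 5 months and 3 days for mouse 1, 5 months with no days for mouse 2 and 5 months and 18 days for mouse 3, in both groups. For the others they give 4 months and 7 to 24 days, while the study states 5 months for all. The mice were perfused with heparinised saline, and the deep brain sample pooled pallidum, thalamus, hypothalamus, midbrain and pons, so that no nucleus can be traced to 1 of these regions. Each mouse gave 1 deep brain and 1 cortical library of single nuclei (10x Genomics 5′ chemistry), 24 in all, and each library is a separate mouse within its region.

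Astrocytes take up glutamate and GABA, buffer potassium, supply neurons with glutamine and lipids, and wrap blood vessels with endfeet rich in the water channel aquaporin-4. In the mouse brain they differ by region of origin: astrocytes of the cortex and hippocampus keep forebrain factors such as *Lhx2* and *Emx2*, whereas those of the thalamus, hypothalamus, midbrain and pons carry high *Slc6a11* (the GABA transporter GAT-3), *Agt* (angiotensinogen) and *Itih3* (a hyaluronan-binding protein). *Pdgfb* ret/ret mice have too few pericytes, a leaky blood-brain barrier and calcified vessels in the deep brain, where astrocyte endfeet meet the vessel wall.

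The label was checked on the genes of the rule and on genes outside it. A UMI of *Slc6a11* was found in 97.9% of members, of *Itih3* in 65.8%, of *Agt* in 64.9%, of *Gja1* (the gap junction protein connexin 43) in 91.0% and of *Aqp4* in 72.7%, and 88.5% had no UMI of the telencephalic genes. In neurons (34485 nuclei), which are deeper at a median of 11307 UMIs against 3287 in members, 13.5% had a UMI of *Slc6a11* and 2.92% of *Agt*, and in oligodendrocytes (22913 nuclei, median 2752 UMIs) 4.22% and 2.92%. Both are genes of the rule, so their shares in members were set by the selection and do not test the label. Outside the rule the glutamate transporter *Slc1a2* had 4534 ± 839 counts per 1000000 UMIs (CPM, mean ± SD, n = 12 libraries) in members, against 227 in neurons and 85.0 in oligodendrocytes of the same libraries. *Slc4a4*, the sodium bicarbonate cotransporter, had 4656 ± 506 CPM against 284 and 44.2. The neurons and oligodendrocytes were chosen with no UMI of the 5 astrocyte genes, so their low levels were set in part by that choice. *Gpc5*, a glypican, was the highest of the 26 identity genes with 8399 ± 908 CPM. Among deep brain astrocytes 82.7% met the sub-type condition, and 43.5% of cortical astrocytes met it too (30 to 63.9% in the 12 cortical libraries). Of those cortical nuclei 33.3% rested on *Slc6a11* alone, against 15.8% of members. The condition therefore does not separate the regions by itself. Cortical astrocytes were deeper than members, with library medians of 3141.5 to 8567.5 UMIs (median 5943). All kept nuclei of the cortical libraries had medians of 804 to 8054 UMIs. The part of depth and library quality in the cortical values was not tested. In the deep brain 195 nuclei with an astrocyte sum of 5 and 523 with a sub-type sum of 2 lay just inside the limits. Just outside were 156 with a sum of 4, 327 with a sub-type sum of 1 and 136 with tied sums.

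Members had a median of 2799 to 3746.5 UMIs per library in mutants and 2966 to 4395.5 in controls, and 1702003 to 2908002 UMIs were summed per library. The median mitochondrial share of UMIs in members was 0.0968 to 0.146% in mutants 1 to 5, above every control (0.0424 to 0.0933%), and 0.0604% in mutant 6, within the controls. This share moves with the genotype in the same mice as many of the called genes below, and its part in those results was not tested. Member barcodes shared between libraries numbered 33 over 66 pairs, at most 2 in a pair. On the first principal component of the summed counts (27.5% of the variance) mutants 1 to 5 lay at 4.78 to 17.7, while mutant 6 lay at -10.1, within the controls (-15.1 to -3.17). Over 867 genes called without it, mutant 6 had a median position of 0.24 on a scale where 0 is the control mean and 1 the mean of the other mutants, and mutants 1 to 5, measured in the same way, had 0.80 to 1.15. Its genotype label was not checked against transcripts of the targeted gene. For these reasons mutant 6 is marked in the plots, and results that rest on it are given with and without it.

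Grouped by their variable genes, without mitochondrial genes and without genes whose unadjusted genotype p was under 0.05, the members fell into 7 sub-clusters of 3935, 1573, 1013, 829, 161, 91 and 69 nuclei. The genes of the rule stayed in this grouping. These are descriptions, since the same genes made the groups. Sub-cluster 1 (51.3%) was led by *B230323A14Rik* (489 CPM against 238 in the other members), *A330076C08Rik* and the AMPA receptor subunit *Gria1* (1696 against 986 CPM). Sub-cluster 2 (20.5%) was led by *Ttr*, transthyretin, which the choroid plexus secretes (305 against 68.8 CPM). It also had high *Fbln5* (fibulin 5, 87.0 against 14.8 CPM), *Cfap44*, a gene of motile cilia (60.0 against 10.2 CPM), *Htr2c*, a serotonin receptor abundant in choroid plexus (119 against 32.8 CPM), *Agt* (1296 CPM) and mitochondrial transcripts, and a low median depth of 2334 UMIs. Sub-cluster 3 (13.2%) was led by *Cyp26b1*, which degrades retinoic acid (270 against 25.4 CPM), the AMPA receptor subunit *Gria4* (1041 against 178 CPM), *Dao*, D-amino acid oxidase (69.3 against 4.86 CPM), and *Aldh1a1*, which makes retinoic acid (1486 against 473 CPM).

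Sub-cluster 4 (10.8%) went against the label. It carried *Lhx2* at 49.1 CPM and *Slc1a2* at 9883, where sub-clusters 1 to 3 had *Lhx2* at 0.51 to 4.04 and *Slc1a2* at 3731 to 4098 CPM. Its *Irx2*, *Irx5* and *Pax3*, factors of the midbrain and hindbrain, were at 5.86, 1.95 and 5.58 CPM, against 30.8 to 41.0, 28.2 to 41.5 and 28.0 to 64.5 CPM in the first 3 sub-clusters. These nuclei met the rule on *Slc6a11* (787 CPM), with *Agt* at 154 and *Itih3* at 198 CPM. The small sub-clusters 5 (2.10%, median 8508 UMIs) and 6 (1.19%, 7265 UMIs) had neuronal and oligodendrocyte precursor genes beside the astrocyte genes. Sub-cluster 7 (0.899%, 5722 UMIs) was led by *Slc6a20a* (1549 against 1.96 CPM in the other members), *Bmp6*, *Ranbp3l*, *Ccn2*, *Slc6a13* and *Lama1*, and *Ranbp3l* (1321 CPM) and *Slc6a13* (364 CPM) are in the fibroblast marker list, so these nuclei also go against the label. Scrublet, a doublet caller, marked 5.65% of deep brain nuclei and 2.54% of members. Sub-cluster 4 made up 4.32 to 15.1% of members in mutants and 1.90 to 26.2% in controls, and sub-cluster 3 5.04 to 21.6% and 3.93 to 30.7%, so both varied widely among mice of 1 genotype.

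Set beside the other astrocytes of the same mice, the members had higher levels of genes of several kinds. The levels below are means over 12 libraries in CPM and carry no test, since the rule chose the types. *Erbb4*, the neuregulin receptor, stood at 2547 ± 258 in members, 275 ± 169 in telencephalic-type astrocytes of the deep brain (712 nuclei) and 459 ± 337 in cortical astrocytes (1393 nuclei). *Gria1* had 1340 ± 144, 160 ± 60.9 and 289 ± 101. The potassium channel gene *Kcnd2* had 3230 ± 371, 484 ± 254 and 643 ± 198. *Slc6a9*, the glycine transporter GlyT1, had 180.2 ± 43.7, 20.7 ± 8.01 and 36.5 ± 13.8. In these genes, the lowest member library lay above the highest library of both other types. *B230323A14Rik*, *Cyp26b1*, *Lrig1*, *Sfrp5* and *A330076C08Rik* were also among the 12 genes furthest above both types, and 9 of the 12 were shared by the 2 lists. Lower in members were *Gfra1*, a receptor for GDNF (47.3 ± 17.2, 316 ± 168 and 247 ± 95.0), the laminin chain *Lama3* (14.1 ± 8.91, 168 ± 52.0 and 125 ± 35.7), *Ephb1* and *Fam13c*, and 7 of 12 were shared. The intermediate filament gene *Gfap*, often used as the astrocyte marker, had 53.0 ± 9.98 CPM in members against 262 ± 94.2 and 165 ± 89.6.

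Some transcription factors that pattern the embryonic brain kept a regional order. *Irx2* had 32.4 ± 7.82 CPM in members, 6.07 ± 11.5 in telencephalic-type and 0.37 ± 1.06 in cortical astrocytes. *Irx5* had 27.2 ± 7.14, 5.19 ± 6.20 and 0.28 ± 0.78, and *Pax3* 40.4 ± 17.0, 10.1 ± 20.9 and 0.45 ± 0.93. *Nkx2-2*, *Nkx6-2* and *Otx2* were likewise higher in the members, at 47.4, 41.9 and 29.0 CPM. The forebrain factors *Lhx2* and *Emx2* were lower in the members. *Lhx2* had 8.60 ± 5.88, 56.5 ± 24.6 and 45.5 ± 15.6 CPM, and *Emx2* 5.56 ± 3.92, 37.3 ± 12.3 and 37.1 ± 18.9. Other factors differed less between the types. *Tcf7l2* had 398, 321 and 296 CPM, *Nr2f1* 45.5, 51.9 and 56.1 and *Zic1* 15.9, 13.5 and 12.9. *Pax6* (24.7, 43.6 and 50.3 CPM), *Zic2*, *Zic4* and *Zic5* were lower in members than in both other types.

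**Figure D1:**
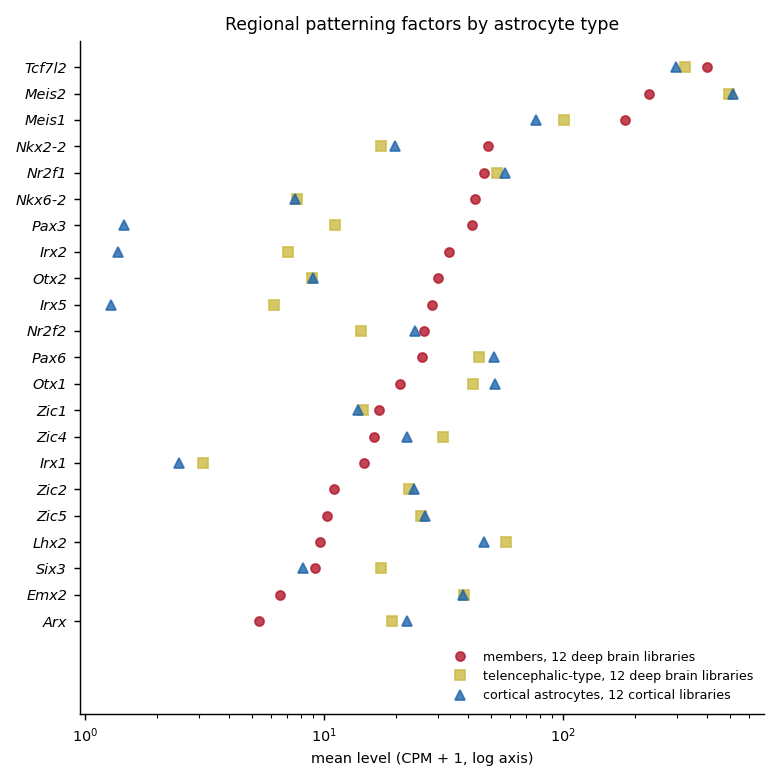
Mean level of 22 regional patterning factors (CPM + 1, log axis) in the members and in telencephalic-type astrocytes of 12 deep brain libraries and in astrocytes of 12 cortical libraries. The members lie to the right of both other types for *Irx2*, *Irx5* and *Pax3*, which are close to 0 CPM in cortical astrocytes, while *Lhx2* and *Emx2* lie to the left in the members.

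The first genotype question was whether the members took a different share of the deep brain. In mutants the members made up 5.08, 7.03 and 7.76% of nuclei (lowest, median and highest of 6 mice), and in controls 4.75, 5.28 and 6.21%. Mutants 2 to 5 lay above every control, mutant 1 was just below the highest control, and mutant 6 lay among the controls. The means were 6.78 ± 1.00% and 5.44 ± 0.618% (SD, n = 6 each), a difference of 1.35 percentage points (two-sided exact permutation test over mice, p = 0.0260). Without mutant 6 the difference was 1.69 points (exact p = 0.00649). It lost significance without mutant 2, mutant 3, mutant 5, control 4 or control 6 (1.15 to 1.26 points, exact p = 0.0519 to 0.0541), with an astrocyte sum of at least 8 (0.986 points, exact p = 0.0693) and with a sub-type sum of at least 4 (0.823 points, exact p = 0.0606). A larger share of members and a smaller number of other nuclei cannot be told apart from these counts.

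Among the deep brain astrocytes placed in 1 of the 2 types, members made up 92.5, 95.1 and 97.3% in mutants and 79.4, 89.1 and 95.0% in controls. The ranges overlap, and control 3 lay among the mutants. The means of 94.8 ± 2.01% and 87.4 ± 6.03% (n = 6 each) differed by 7.39 points (exact permutation test, p = 0.0130). The difference stayed between 5.72 and 8.90 points with exact p under 0.05 in each alternative tried, all with the 2 types as denominator. Of the 9272 deep brain astrocytes 889 were in neither type. As a share of all deep brain astrocytes, members made up 80.7 to 89.4% in mutants and 71.3 to 89.2% in controls, and this share was not tested. The telencephalic type numbered 18 to 67 nuclei per mutant and 28 to 112 per control. *Agt*, a gene of the rule, had 425 ± 113 CPM in members of mutants and 623 ± 110 in controls, *Itih3* had 496 ± 177 and 666 ± 49.0, and *Slc6a11* had 1444 ± 170 and 1439 ± 215. Of the telencephalic genes of the rule, *Lypd6* had 18.3 ± 6.82 and 29.4 ± 12.7 CPM in the same members, and *Emx2os* 15.2 ± 4.43 and 27.2 ± 16.1. *Thbs4* had 2.42 ± 1.33 and 4.81 ± 2.65 CPM, and *Myoc* 3.04 ± 3.97 and 3.00 ± 2.11. A changed level of these genes, a changed share of the types and a difference in dissection cannot be told apart from these counts.

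**Figure D2:**
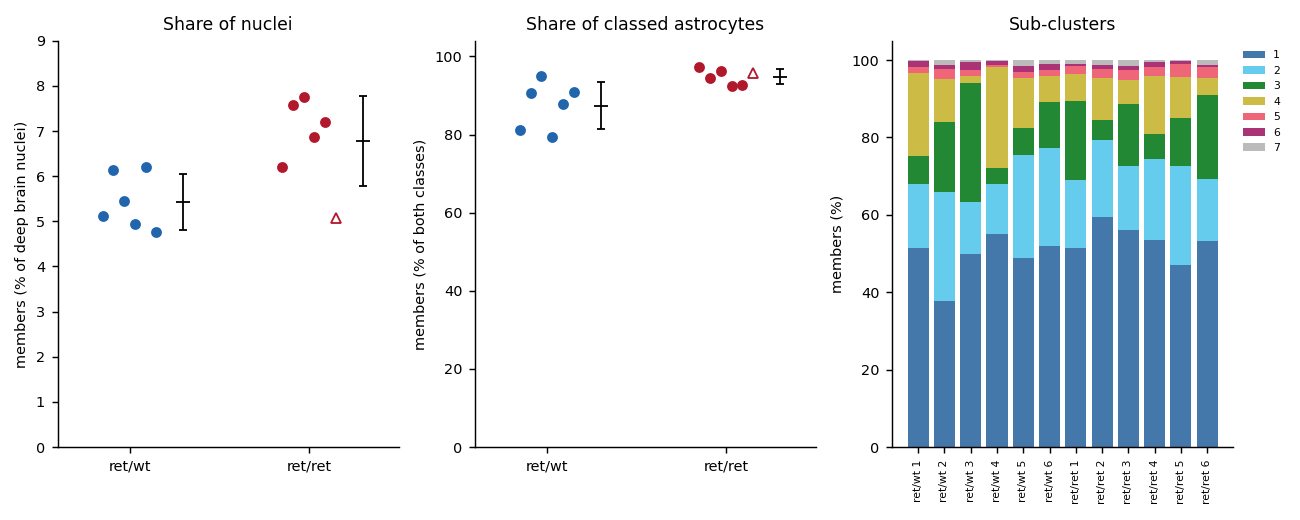
Members as a share of deep brain nuclei (left) and of both astrocyte types (middle), 1 point per mouse with mean ± SD beside it and mutant 6 as an open triangle, and the share of 7 sub-clusters among members of each mouse (right, stacked to 100%). Mutants 1 to 5 lie at 6.19 to 7.76% of nuclei, mutant 6 at 5.08% lies within the controls, and sub-clusters 3 and 4 vary widely among controls.

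The second question was which genes differ between genotypes within the members. Counts were summed per mouse, and 12375 genes were tested with edgeR's quasi-likelihood test and Benjamini-Hochberg adjustment. At an adjusted p under 0.05, 480 genes (3.88%) were called, 292 higher (2.36%) and 188 lower (1.52%) in mutants, and the median log2 fold change of all genes was -0.00. The 6 mutants did not overlap the 6 controls in 269 genes (2.17%), 205 of them called. Levels in the gene tests are CPM scaled by TMM factors, and fold changes are log2 of mutants over controls. Without mutant 6, 878 genes were called, 477 of them shared with the 480. In 100 of the 292 genes called higher mutant 6 lay within the range of the controls, against 6 to 42 for each other mutant, and in 90 of the 188 called lower, against 9 to 21. Of the 62 called genes named in the text 37 were called whichever mouse was left out. The call was lost without at least 1 mouse for *Irf9*, *Ifit2*, *Ifi27*, *Gbp7*, *Xaf1*, *Parp14*, *B2m*, *H2-D1*, *C4b*, *Osmr*, *Cd109*, *C1qa*, *Sntb1*, *Sntg1*, *Lamb2*, *Ndp*, *Chrdl1*, *Glud1*, *Col1a1*, *Soat1*, *Thbs2*, *Gli1*, *Mfge8*, *Spef2* and *Rbfox1*, with the direction kept. With the share of telencephalic-type astrocytes in each library as a covariate, which itself differs between the genotypes, 105 genes were called, 26 of the 62 among them. The other 36 kept their direction, and their median absolute log2 fold change was 0.78 without and 0.80 with the covariate. Among these 36 were *Ddx60* (1.70 with the covariate), *Gm32569* (1.44), *Adra1a* (-1.15) and *Gm37679* (-0.90). *Mfge8* was also among them, at -0.29 with and -0.59 without the covariate.

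Genes of large change were chosen, 10 per direction, among called genes with a mean of at least 10 CPM and no overlap of the genotypes. *A2m* (ENSMUSG00000030111, chr6:121635376-121679227), the protease inhibitor alpha-2-macroglobulin, was the most abundant of the 10 with the largest rise. Its levels were 68.4, 142 and 205 CPM in mutants (lowest, median and highest) and 37.3, 50.2 and 55.0 CPM in controls. By the choice of genes no mutant overlapped a control, and the lowest mutant was mutant 6. The log2 fold change was 1.57 ± 0.19 (SE), adjusted p = 2.17e-04, and 1.70 without mutant 6. In neurons and oligodendrocytes of the same libraries *A2m* had 1.55 and 1.32 CPM in mutants, far below its level in the members.

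The other genes of largest rise within these limits were of several kinds. *Prelp*, a small leucine-rich proteoglycan, had 47.6, 74.5 and 102 CPM in mutants and 21.1, 28.5 and 39.8 in controls (log2 fold change 1.38 ± 0.18 (SE), adjusted p = 3.88e-04). *Mamdc2*, which encodes a secreted matrix protein, had 19.2, 25.3 and 28.1 CPM and 6.31, 7.87 and 9.61 CPM (1.61 ± 0.15 (SE), adjusted p = 2.83e-05). *Abi3bp*, another matrix gene, rose by 1.52 ± 0.21, and *Ephx1*, the microsomal epoxide hydrolase, by 1.35 ± 0.17. *Rimbp2*, which encodes a scaffold of the presynaptic active zone, had 55.3, 79.5 and 92.8 CPM in members of mutants and 16.6, 27.9 and 34.7 in controls (1.54 ± 0.15 (SE), adjusted p = 3.47e-05). Its level in neurons was 186 and 194 CPM, with no call there (adjusted p = 0.895). In all of these genes the lowest mutant lay above the highest control, which was a condition of their choice. *Ddx60*, an interferon-induced helicase, rose by 1.98 ± 0.27. The long non-coding RNA *Gm31135* rose by 2.17 ± 0.22, and *Gm33037* and *Gm32569* by 1.85 ± 0.25 and 1.63 ± 0.27. The annotation lists *Gm33037*, *Gm32569* and *Gm37679* (below) as antisense to other genes. Strand use in counting is not given in the sources used here, and whether reads of the partner gene enter their counts was not tested.

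The largest fall within the same limits was in *Lrrc8c*, a subunit of the volume-regulated anion channel. It had 11.3, 17.6 and 25.5 CPM in mutants and 30.8, 53.0 and 87.5 in controls (-1.65 ± 0.24 (SE), adjusted p = 9.93e-04). *Acat3* (chr17:12923813-12940600), an acetyl-CoA acetyltransferase and close relative of *Acat2*, with which it may share reads, had 19.9, 26.3 and 61.2 CPM and 79.7, 97.5 and 109.8 CPM (-1.59 ± 0.21 (SE), adjusted p = 5.11e-04). Mutants 1 to 5 lay at 43.7 CPM or below, and mutant 6 at 61.2. *Adra1a*, the alpha-1A adrenergic receptor through which noradrenaline acts on astrocytes, had 22.0, 34.2 and 73.1 CPM in mutants and 74.7, 81.9 and 118 in controls (-1.27 ± 0.20 (SE), adjusted p = 0.00215). Its highest mutant was again mutant 6 (73.1 CPM), just under the lowest control. *Ptchd4*, a patched-domain gene, fell by 1.41 ± 0.24, *Exd1* by 1.27 ± 0.22, *Arhgap18*, which acts on small GTPases, by 1.09 ± 0.13 and *Gm37679* by 1.10 ± 0.19 on the log2 scale. In neurons *Adra1a* (32.4 and 32.9 CPM) and *Ptchd4* (218 and 207 CPM) did not pass the test.

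**Figure D3:**
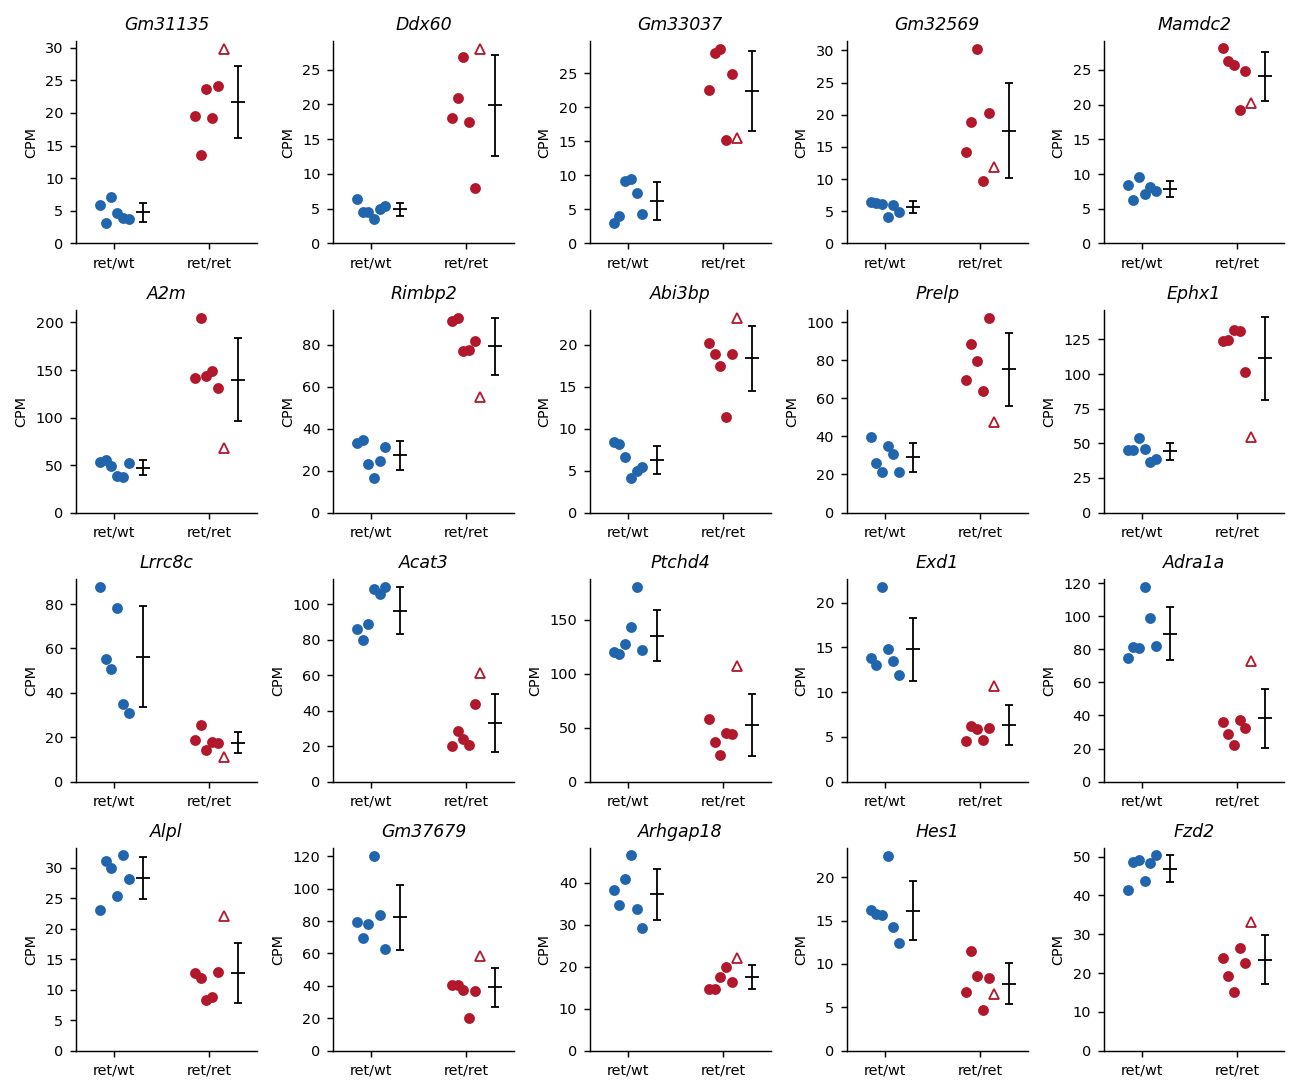
Levels (CPM) of the 20 genes of largest change, 10 higher and 10 lower in mutants, in members of each mouse with mean ± SD per genotype and mutant 6 as an open triangle. The genotypes do not overlap in any of the 20, which is how they were chosen, and mutant 6 is the mutant nearest to the controls in *A2m*, *Acat3*, *Adra1a* and *Alpl*.

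Interferon and antigen presentation genes were mostly higher in mutants. Of 26 tested genes of this list, 9 were called (34.6%, against 3.88% of all genes tested) and all 9 rose, 25 had a positive log2 fold change, and the median was 0.58, against -0.00 over all genes tested. The summed level of the 26 genes was 525, 699 and 756 CPM in mutants and 471, 481 and 504 CPM in controls. Every mutant lay above every control, and mutant 6, at 725 CPM, was among the highest, unlike its place in most of the called genes. In 19 of the 26 genes mutant 6 was above all controls. With the telencephalic-type share as a covariate 1 of the 26 was called, *Nlrc5*, and the median was 0.34. The fold changes of the called genes were then 0.81 for *Irf9*, 1.27 for *Ifit2*, 0.56 for *Ifi27*, 1.03 for *Gbp7*, 1.98 for *Xaf1*, 1.45 for *Parp14*, 1.62 for *Nlrc5*, 0.54 for *B2m* and 0.44 for *H2-D1*. The summed endothelial and microglial genes described below were also higher in the median of the mutants, at 58.7 against 26.4 and 105 against 88.2 CPM, and their part in the interferon rise was not tested. The list was chosen with earlier results of these data known.

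Among the transcription factors *Irf9* was called, while *Stat2* (0.23, adjusted p = 0.559) and *Irf1* (0.38, adjusted p = 0.264) did not pass edgeR's test. *Irf9*, the DNA-binding part of the factor that interferons activate, had 10.1, 12.3 and 16.0 CPM in mutants and 4.62, 7.34 and 9.91 in controls (0.85 ± 0.20 (SE), adjusted p = 0.0219). *Nlrc5*, the activator of major histocompatibility complex (MHC) class I genes, had 8.99, 9.47 and 15.1 CPM and 2.46, 3.29 and 5.91 CPM (1.51 ± 0.24 (SE), adjusted p = 0.00189), with no overlap. Of its targets, *B2m*, the light chain of MHC class I, had 18.2, 21.4 and 25.6 CPM in mutants and 11.7, 14.5 and 16.2 in controls (0.59 ± 0.14 (SE), adjusted p = 0.0295), again without overlap. *H2-D1*, a heavy chain from a family whose members may share reads, rose by 0.69 ± 0.19 (adjusted p = 0.0463), and without mutant 6 it missed the threshold (0.65, adjusted p = 0.0529). Among interferon-induced effectors *Gbp7*, a guanylate-binding protein, had 8.04, 10.2 and 16.1 CPM and 3.60, 6.09 and 7.09 CPM (0.97 ± 0.23 (SE), adjusted p = 0.0234), with no overlap. *Ifit2* rose by 0.88 ± 0.22, *Ifi27* by 0.65 ± 0.17, *Xaf1* by 1.41 ± 0.33 and *Parp14* by 1.68 ± 0.41, *Parp14* at only 0.506, 1.61 and 4.33 CPM in controls. None of the 9 was called in neurons, and of the 9 *Nlrc5* alone was called in oligodendrocytes (5.80 and 1.73 CPM, adjusted p = 0.0136). Those fits kept genes of low count, so p was adjusted over 27969 genes in neurons and 24409 in oligodendrocytes, against 12375 in members. The log2 fold changes in oligodendrocytes were 0.78 for *Irf9*, 0.65 for *B2m*, 0.91 for *H2-D1*, 1.40 for *Gbp7*, 1.48 for *Parp14*, 0.36 for *Ifi27*, 0.11 for *Xaf1* and -0.07 for *Ifit2*. No test compared them with those in the members.

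The promoters of *Gbp7* and *B2m* are shown because they are the 2 among the 6 called interferon genes with a promoter sequence that hold a pair of GAAA repeats with any 2 bases between them, the core of the interferon-stimulated response element, on either strand. Each runs from 250 bases before to 50 bases after the transcription start, 5′ to 3′ on the + strand of GRCm38.p6 (RefSeq), with the motif in capitals.
*Gbp7* promoter, chr3:142530086-142530385: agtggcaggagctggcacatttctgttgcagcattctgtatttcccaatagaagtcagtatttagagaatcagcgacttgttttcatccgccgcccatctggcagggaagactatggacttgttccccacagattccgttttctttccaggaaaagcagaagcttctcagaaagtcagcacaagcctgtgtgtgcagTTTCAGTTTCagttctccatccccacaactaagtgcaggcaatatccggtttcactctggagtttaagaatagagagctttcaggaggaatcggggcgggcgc
*B2m* promoter, chr2:122147437-122147736: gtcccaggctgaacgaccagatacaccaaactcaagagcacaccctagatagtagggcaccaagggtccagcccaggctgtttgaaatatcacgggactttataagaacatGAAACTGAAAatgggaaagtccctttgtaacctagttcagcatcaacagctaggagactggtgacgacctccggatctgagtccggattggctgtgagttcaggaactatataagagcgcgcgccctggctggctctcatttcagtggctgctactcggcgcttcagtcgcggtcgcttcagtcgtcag
The motif begins at position -53 from the start in *Gbp7*, where it stands on the reverse strand, and at -139 in *B2m*. It was found in 1079 of 27025 promoters of all genes (3.99%), in 345 of 9631 tested genes with a promoter (3.58%), in 18 of 208 called higher (8.65%), in 4 of 140 called lower (2.86%) and in 9 of 20 tested interferon genes (45%). The windows of *Irf9*, *Ifit2*, *Xaf1* and *H2-D1* did not hold these letters. A match describes the sequence and shows neither binding nor a cause of the change.

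Genes of reactive astrocytes changed in part. Of 25 tested, 5 were called (20%, against 3.88% of all genes), 4 higher and 1 lower, 20 were positive and the median was 0.12. *A2m* was described above. *C4b*, complement component 4, had 42.8, 53.1 and 71.5 CPM in mutants and 28.1, 35.7 and 45.2 in controls (0.62 ± 0.14 (SE), adjusted p = 0.0171), with mutant 6 (42.8 CPM) inside the control range. *C4b* was also called higher in oligodendrocytes, from 17.6 to 72.8 CPM (log2 fold change 2.06, adjusted p = 5.2e-08), and was called in neurons too (0.443 and 1.58 CPM), and the difference between the classes was not tested. *Osmr*, the oncostatin M receptor, rose by 1.13 ± 0.29 at 4.37, 4.78 and 6.37 CPM in mutants and 0.506, 2.53 and 3.15 in controls, and *Cd109*, a membrane protein that binds TGF-beta, by 1.17 ± 0.32, in mutants 1 to 5 at 6.57 to 8.62 CPM but in mutant 6 at 1.78. *Igfbp5*, a binding protein of insulin-like growth factors, fell from 97.2 ± 15.8 to 57.9 ± 15.2 CPM (-0.76 ± 0.15 (SE), adjusted p = 0.00827). *Gfap* was no part of this rise, with 53.2 ± 10.2 CPM in mutants and 52.9 ± 10.8 in controls.

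Where the astrocyte meets the vessel, 4 of 31 endfoot genes were called (12.9%, against 3.88% of all genes), 2 higher and 2 lower (median -0.09). *Bsg*, which encodes basigin, a partner of lactate transporters, had 184, 229 and 239 CPM in mutants and 118, 134 and 158 in controls (0.68 ± 0.09 (SE), adjusted p = 5.11e-04). The groups did not overlap, and the fold change was 1.60. Of the syntrophins, adaptors of the dystrophin complex that anchors aquaporin-4, *Sntb1* rose (0.47 ± 0.11 (SE), adjusted p = 0.0189) and *Sntg1* fell (-0.45 ± 0.12 (SE), adjusted p = 0.0430). *Lamb2*, a laminin chain of the vascular basement membrane, fell from 28.2 ± 5.20 to 19.9 ± 2.56 CPM (adjusted p = 0.0429). *Aqp4*, a gene of the rule, had 555 ± 109 CPM in mutants and 479 ± 19.0 in controls.

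Of 28 tested genes for signals from astrocytes to vessels 2 were called (7.14%, against 3.88% of all genes), both lower (median -0.11). *Ndp*, which encodes norrin, a ligand of the Wnt receptor on endothelial cells that maintains the barrier, had 13.4, 15.8 and 21.7 CPM in mutants and 20.0, 25.1 and 33.1 in controls (-0.61 ± 0.15 (SE), adjusted p = 0.0349). *Chrdl1*, a secreted antagonist of bone morphogenetic proteins, had 3.37, 5.20 and 11.1 CPM and 8.11, 14.3 and 29.5 CPM (-1.40 ± 0.33 (SE), adjusted p = 0.0215), with overlap in both. *Chrdl1* was at 67.8 CPM in sub-cluster 4 and at 2.58 CPM in the other members, and it fell by 0.56 with the telencephalic-type share as a covariate (log2 scale, adjusted p = 0.569).

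In the list of transmitter handling 2 genes were called higher and 2 lower. *Slc38a1*, a glutamine transporter (chr15:96571418-96642913), had 102, 179 and 207 CPM in mutants and 74.6, 76.5 and 92.4 in controls, with no overlap (1.09 ± 0.14 (SE), adjusted p = 3.40e-04). *Slc38a3*, the main glutamine exporter of astrocytes, had 336, 413 and 426 CPM and 246, 282 and 302 CPM, also without overlap (0.50 ± 0.08 (SE), adjusted p = 0.00250). *Gabbr1*, a GABA-B receptor subunit, had 199.6, 238 and 361 CPM in mutants and 336, 397 and 482 in controls (-0.68 ± 0.13 (SE), adjusted p = 0.00525), and the overlap came from mutant 6 (361 CPM). *Glud1*, glutamate dehydrogenase, fell by 0.39 ± 0.10 and by 0.48 without mutant 6, whose level of 645 CPM was the highest of the mutants. These were the 4 called of 32 tested in the list (12.5%, against 3.88% of all genes; median -0.06). Neither *Slc38a1* nor *Gabbr1* was called in neurons (adjusted p = 0.918 and 0.865).

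Genes that set extracellular phosphate were of interest because vessels of the mutant calcify. Of 26 tested genes 4 were called (15.4%, against 3.88% of all genes), with a median of -0.02. *Alpl* (chr4:137741733-137796384), the alkaline phosphatase that removes pyrophosphate, an inhibitor of mineral, had 8.23, 12.3 and 22.0 CPM in mutants and 23.1, 29.0 and 32.0 in controls (-1.21 ± 0.19 (SE), adjusted p = 0.00180). The groups did not overlap, and mutants 1 to 5 lay at 12.9 CPM or below. *Entpd2*, which degrades extracellular nucleotides, had 41.4, 62.5 and 85.0 CPM and 90.3, 112 and 126 CPM (-0.83 ± 0.13 (SE), adjusted p = 0.00225), with no overlap. *Enpp2*, which makes lysophosphatidic acid, rose (0.82 ± 0.16 (SE), adjusted p = 0.00828), with 115, 175 and 219.6 CPM in mutants and 76.6, 93.1 and 156 in controls, where control 4 was highest. Oligodendrocytes held 2326 and 2347 CPM of *Enpp2*, and the part of free RNA in the level of the members was not tested. *Col1a1*, a chain of collagen I, fell from 21.7 ± 4.32 to 13.0 ± 5.11 CPM (adjusted p = 0.0439).

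Of 43 tested genes of the hedgehog, Notch and Wnt pathways 5 were called (11.6%, against 3.88% of all genes), all lower, 14 were positive and the median was -0.11. *Gli1*, a target and effector of hedgehog signalling, had 11.9, 18.0 and 22.9 CPM in mutants and 21.1, 26.3 and 35.7 in controls (-0.69 ± 0.17 (SE), adjusted p = 0.0295). *Hes1* and *Heyl*, repressors that Notch induces, had 4.71, 7.57 and 11.5 and 10.1, 13.6 and 27.9 CPM in mutants against 12.4, 15.7 and 22.5 and 22.8, 30.0 and 42.7 CPM in controls (-1.04 ± 0.20 and -1.10 ± 0.21). *Hes1* did not overlap between the genotypes, and *Heyl* did so through mutant 6 alone (27.9 CPM). *Fzd2*, a Wnt receptor, had 15.1, 23.3 and 33.3 CPM and 41.3, 48.5 and 50.3 CPM (-1.02 ± 0.14 (SE), adjusted p = 6.61e-04), with no overlap, and *Rspo3*, a secreted enhancer of Wnt signalling, fell from 24.2 ± 9.26 to 9.18 ± 3.20 CPM (adjusted p = 0.00664). Without mutant 6, *Ptch1*, *Hhip* and *Fzd9* were called lower as well, which made 8 of 43. The counts of other lists also rose without mutant 6, from 1 to 6 identity genes, from 2 to 6 vascular signals, from 2 to 6 matrix genes, from 4 to 8 genes of transmitter handling, from 4 to 7 endfoot genes, from 4 to 6 calcification genes, from 2 to 5 cholesterol genes and from 1 to 3 metal genes. The interferon list went from 9 to 10, the reactive list from 5 to 6 and the hypoxia list from 0 to 1, and the immediate early list stayed at 1 and the patterning list at 0. Over all genes tested the calls rose from 480 of 12375 to 878 of 12578 in the same fits. With the telencephalic-type share as a covariate 1 gene each was called of the reactive (*A2m*), pathway (*Fzd2*), transmitter (*Slc38a1*) and cholesterol (*Scarb1*) lists, 2 each of the endfoot (*Bsg* and *Sntg1*) and matrix (*Thbs2* and *Hapln1*) lists, 3 of the calcification list (*Enpp2*, *Alpl* and *Entpd2*), and 0 of the identity, vascular signal, metal and immediate early lists. Among the lost calls the log2 fold change with the covariate was 0.80 for *C4b*, 1.17 for *Osmr*, 1.41 for *Cd109*, -0.79 for *Igfbp5*, -0.80 for *Gli1*, -0.84 for *Hes1*, -0.97 for *Heyl*, -1.26 for *Rspo3*, 0.46 for *Slc38a3*, -0.65 for *Gabbr1*, -0.57 for *Slc30a10* and -1.20 for *Arc*.

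In the fit of all 12 mice the share of lipid and matrix genes called lay near the 3.88% of all genes tested. Of 47 tested cholesterol and lipoprotein genes 10 were positive and the median was -0.25, and 2 were called (4.26%). *Scarb1*, a receptor for high-density lipoprotein, had 16.6, 37.6 and 49.6 CPM in mutants and 12.4, 15.8 and 18.7 in controls (1.16 ± 0.20 (SE), adjusted p = 0.00340), where mutant 6 (16.6 CPM) lay within the controls. *Soat1*, which esterifies cholesterol, fell from 321 ± 23.0 to 259 ± 27.8 CPM (adjusted p = 0.0463). In the mice labelled 5 months alone 16 of the 47 genes of the list were called, against 540 of 12451 over all genes tested there. Of the 16, 15 were lower, among them *Hmgcs1*, *Idi1*, *Cyp51* and *Msmo1* of cholesterol synthesis. The mice labelled 4 months, tested alone, gave 2 calls over all genes, although 478 of 478 genes called in all mice and tested there had the same direction in them, with a median absolute log2 fold change of 0.59 (0.66 in all mice and 0.73 in the mice labelled 5 months). These libraries also chose the genes. Mutant 6 was among the mice labelled 4 months, and its part in the difference between the age groups was not tested. The summed level of the 47 genes was 9469 to 9759 CPM in mutants 1 to 3. It was 8307, 12672 and 11422 CPM in mutants 4 to 6, and 9645 to 12276.5 CPM in controls. The interaction of age and genotype called 0 of all genes tested with edgeR (570 at an unadjusted p under 0.05). Of 43 genes for matrix and synapse organisation *Thbs2*, thrombospondin 2 (28.3 ± 7.17 CPM in controls and 15.6 ± 6.43 in mutants, adjusted p = 0.0399), and *Chrdl1* were called (4.65%), both lower.

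In the remaining lists the share called was also near or below that of all genes, at 3.57% of metal, 3.45% of immediate early and 3.85% of identity genes. *Slc30a10*, a manganese exporter, fell from 145 ± 24.5 to 88.1 ± 13.1 CPM (-0.73 ± 0.12 (SE), adjusted p = 0.00216), the 1 called of 28 metal genes. *Arc*, an immediate early gene, fell at 1.72, 2.69 and 5.04 CPM in mutants and 5.57, 8.09 and 14.3 in controls (-1.58 ± 0.32 (SE), adjusted p = 0.00828), the 1 called of 29. *Arc* was also called lower in neurons (15.2 and 54.5 CPM, adjusted p = 0.0176). *Mfge8*, a bridging protein for phagocytosis, was the only called of 26 identity genes (-0.59 ± 0.14 (SE), adjusted p = 0.0266). Of 35 hypoxia and glycolysis genes 0 were called by edgeR or DESeq2, 2 had an unadjusted p under 0.05, and the 2 most abundant, *Aldoc* and *Gapdh*, had log2 fold changes of -0.15 ± 0.12 and -0.04 ± 0.11 (adjusted p = 0.585 and 0.902). Of the 24 regional patterning factors tested 0 were called by either tool, 6 were positive and the median was -0.20. The most abundant were *Tcf7l2* at -0.13 ± 0.09 and *Meis2* at 0.13 ± 0.10 (adjusted p = 0.526 and 0.571). An unadjusted p under 0.05 was found in 6, *Emx2*, *Lhx2*, *Nr2f1*, *Otx1*, *Otx2* and *Zic4*, each with the lower mean in mutants. *Lhx2* had 5.54 ± 3.29 CPM in mutants and 11.7 ± 6.55 in controls. Whether the regional make-up of the members differs between the genotypes was not tested.

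**Figure D4:**
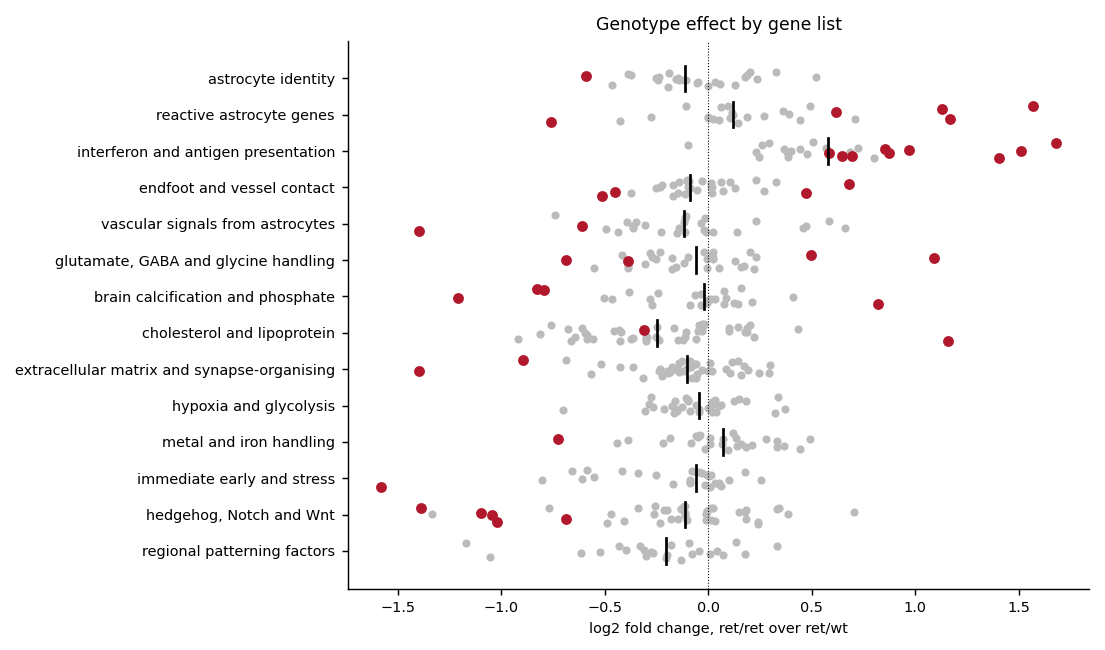
Log2 fold change (mutants over controls) of each tested gene by gene list, called genes in red and the list median as a black bar. The interferon list has its median at 0.58 with 9 called genes, the cholesterol list lies at -0.25 with 2, and the other lists drawn lie between these.

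Genes of other cell classes were counted in the same sums. Summed CPM of 13 microglial genes ranged from 88.3 to 130 around a median of 105 in mutants and from 72.7 to 107 around 88.2 in controls, and 12 of the 13 had the higher mean in mutants. The 10 endothelial genes summed to 30.0 to 153 (median 58.7) and 10.8 to 45.0 CPM (median 26.4), with all 10 means higher in mutants. The 12 neuronal genes summed to 1631 to 2310 (median 1984) and 1078 to 1977 CPM (median 1695), with 10 means higher, and the 5 blood genes to 4.12 to 36.0 and 1.77 to 9.01 CPM, with all 5 higher. Oligodendrocyte genes summed to 764 to 1076 and 820 to 1029 CPM. The ranges overlapped in each of these lists. Among them *C1qa*, a microglial complement gene, was called higher in members (6.00, 8.77 and 15.1 CPM in mutants, 1.62, 4.28 and 5.41 in controls, 1.26 ± 0.30 (SE), adjusted p = 0.0260), and in neurons it had 3.80 and 2.37 CPM. *Aspa*, an enzyme of oligodendrocytes and astrocytes, was called lower in members (-0.99 ± 0.17 (SE), adjusted p = 0.00361) and in oligodendrocytes (788 and 1066 CPM). *Pdgfra*, the gene of oligodendrocyte precursor cells, was called lower (-0.88 ± 0.17 (SE), adjusted p = 0.00657), with a log2 fold change of 0.03 in sub-clusters 1 to 3. Of 9 tested precursor genes it was the 1 called (median -0.31), where 480 of all 12375 genes were called. In sub-clusters 1 to 3 alone 3 of 5, *Lhfpl3*, *Tnr* and *Cacng4*, were called higher (median 0.76), where 515 of 11686 genes were called. *Rbfox1* (0.51 ± 0.13), *Grin2b* (0.63 ± 0.13), *Atp13a5* (0.48 ± 0.08) and *Spef2* (0.53 ± 0.14), from the neuronal, mural and ependymal lists, were called higher, and *Rbfox1* and *Grin2b* had 6845 and 1174 CPM in neurons of mutants. Of the endothelial list only *Mecom* could be tested (0.35 ± 0.40, adjusted p = 0.742), and of 7 tanycyte genes 0 were called by edgeR or DESeq2 (4 at an unadjusted p under 0.05), the most abundant being *Dio2* (-0.50 ± 0.19, adjusted p = 0.166) and *Vcan* (0.01 ± 0.21, adjusted p = 0.994). The part of free RNA and mixed nuclei in these results was not tested. Of the 62 called genes named here, 2 were also called in neurons, where 189 of 27969 genes were called, and 5 in oligodendrocytes, where 165 of 24409 were called.

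The genotype differences were then followed through the sub-clusters. Of the 62 genes 23 could be tested in each of sub-clusters 1 to 4, and all 23 had the same direction in all 4. These libraries also chose the genes, so the shared direction is a description. Sub-cluster 1 called 21 of the 23, sub-cluster 2 called 6, sub-cluster 3 called 8 and sub-cluster 4 called 14. *A2m* had log2 fold changes of 1.53 ± 0.20, 1.23 ± 0.21, 1.96 ± 0.28 and 2.75 ± 0.35 (SE) in sub-clusters 1 to 4, *Acat3* -1.43 ± 0.24, -1.42 ± 0.25, -2.10 ± 0.26 and -1.85 ± 0.22, and *Bsg* 0.78 ± 0.09, 0.60 ± 0.15, 0.47 ± 0.16 and 1.09 ± 0.18. *Slc38a1* had 1.53 ± 0.22, 0.61 ± 0.25, 1.94 ± 0.22 and 0.70 ± 0.25. The sums rested on 210 to 461 nuclei per mouse in sub-cluster 1 and 50 to 210 in sub-cluster 2. They rested on 15 to 162 in sub-cluster 3 and 10 to 124 in sub-cluster 4. Differences between sub-clusters were not tested. Without sub-clusters 4 to 7, 515 of 11686 genes tested were called in all. Of the 62 named genes 58 could then be tested, 52 kept their call, *C4b* (0.50, adjusted p = 0.107), *Sntb1*, *Ndp*, *Ifit2* and *Soat1* lost it, and *Pdgfra* changed sign, and 2 of 19 tested reactive genes were called.

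**Figure D5:**
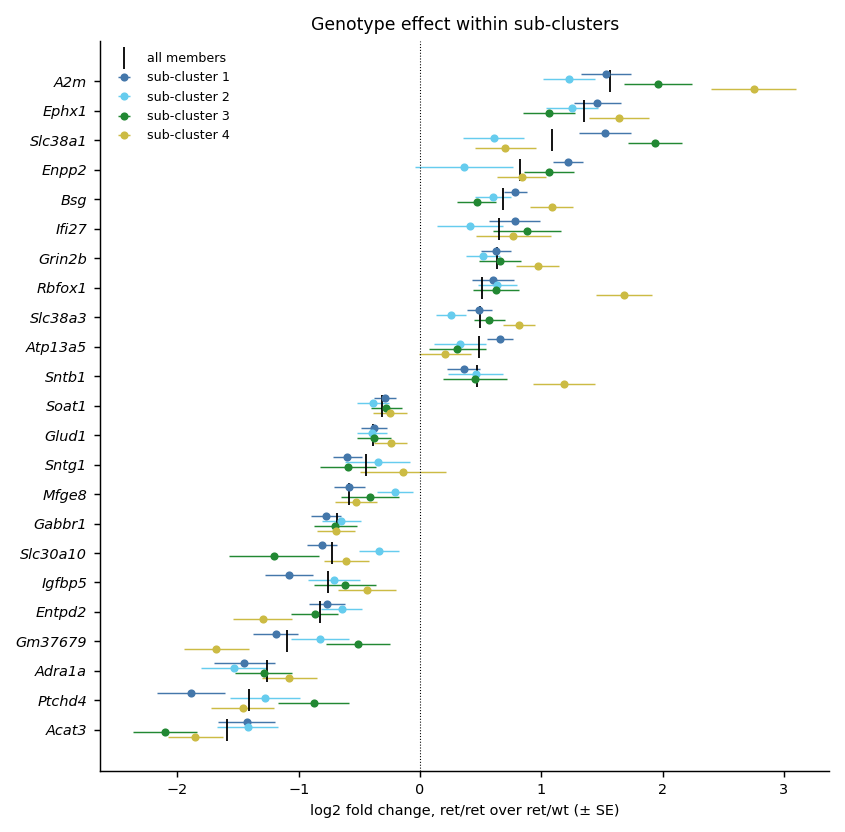
Log2 fold change ± SE (mutants over controls) of 23 genes in sub-clusters 1 to 4, with a black tick for all members. Each gene lies on 1 side of 0 in all 4 sub-clusters, with *A2m* between 1.23 and 2.75 and *Acat3* between -2.10 and -1.42.

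The last question was whether the genotype effect in the members differed from that in the other astrocytes of the same mice. Against the telencephalic type of the deep brain 0 of 11630 genes (0%) passed the edgeR test of the interaction, with 720 at an unadjusted p under 0.05 and 1 called by DESeq2. The telencephalic sums rested on 18 to 112 nuclei per mouse, and the size of difference that this test could detect was not measured. In these nuclei *A2m* had a log2 fold change of 2.26 ± 0.33 (SE), *Acat3* -1.31 ± 0.25, *Lrrc8c* -1.29 ± 0.24, *Bsg* 0.89 ± 0.19 and *Slc38a3* 0.97 ± 0.17, beside 1.57, -1.59, -1.65, 0.68 and 0.50 in the members. *Prelp* had 0.51 ± 0.24 there and 0.10 ± 0.19 in cortical astrocytes, against 1.38 ± 0.18 in the members, and neither interaction passed the test (adjusted p = 0.322 and 0.101). Some named genes had the opposite sign in the telencephalic type. *Sntg1* had 1.32 ± 0.22 there and 1.24 ± 0.27 in cortical astrocytes, against -0.45 in the members (adjusted p of the interactions = 0.0671 and 0.253), and *Thbs2* had 1.12 ± 0.78, against -0.90 (adjusted p = 0.632). *Ddx60* and *Ifit2* were at -0.05 there, with SEs of 0.53 and 0.75, and at 1.86 ± 0.49 and 0.97 ± 0.61 in cortical astrocytes. In the telencephalic type the log2 fold change was 2.30 ± 0.79 for *Nlrc5*, 0.83 ± 0.33 for *Ifi27* and 0.82 ± 0.40 for *H2-D1*. It was 0.42 ± 0.50 for *Gbp7*, 0.36 ± 0.45 for *B2m* and 0.35 ± 0.56 for *Irf9*. In cortical astrocytes these genes had 0.99, 0.34, 0.49, 0.15, 0.51 and 0.70, in the same order. No interaction tested for these interferon genes passed. The smallest adjusted p of the interaction with the telencephalic type was 0.0566, in *Asap1*, *Rbfox1*, *Adarb2*, *2900052N01Rik*, *Slc24a4* and *Plcb1*. These are named here after their values were seen.

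Against cortical astrocytes 3 of 12428 genes (0.0241%) were called, with 691 at an unadjusted p under 0.05. *Tafa1*, which encodes a secreted chemokine-like protein of the brain, averaged 73.7 CPM in members of mutants and 194 in members of controls, and in cortical astrocytes 114 and 70.5 CPM. The difference of its 2 log2 fold changes was -1.92 ± 0.29 (SE, adjusted p = 0.0117). *Olfr1033*, listed as an olfactory receptor gene, had 15.9 and 6.34 CPM in members of mutants and controls and 3.82 and 16.7 CPM in cortex (3.16 ± 0.57, adjusted p = 0.0468). *Scel*, which encodes sciellin, had 16.4 and 22.5 CPM in members and 19.8 and 4.03 CPM in cortex (-2.68 ± 0.49, adjusted p = 0.0468). The cortical sums rested on 20 to 422 astrocytes per mouse, and *A2m*, *Acat3* and *Alpl* had 2.24 ± 0.36, -1.14 ± 0.24 and -1.67 ± 0.41 there. The count of called genes was 0 without control 6 or mutant 4 and 8 without mutant 6.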

How the data were processed

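Single nuclei were counted per library with the 10x Genomics 5′ assay. Per the labels and the methods of the study, the authors converted reads with bcl2fastq 2.20.0.422, ran Cell Ranger 5.0.1 against mm10 with introns included, and deposited UMI counts per gene and barcode, without normalization.

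Nuclei entered with more than 500 and fewer than 7000 genes and under 20% of UMIs from mitochondrial genes. The members and gene lists were chosen with earlier results of these data known. Telencephalic-type astrocytes met the same astrocyte and exclusion limits, with at least 2 UMIs of *Lypd6*, *Emx2os*, *Thbs4* and *Myoc* and more than of the 3 sub-type genes. Neurons had at least 2 UMIs of *Rbfox3* and oligodendrocytes at least 5 of *Mog*, *Mag* and *Mobp*, both with none of the 5 astrocyte genes. Counts were summed per library and tested with edgeR 4.0.16 in R 4.3.3 (low-count filter, TMM factors, quasi-likelihood test, Benjamini-Hochberg threshold 0.05). Genotype alone was fitted for members, and the mouse was a block for interactions. The fits of neurons and of oligodendrocytes, and those of telencephalic-type and of cortical astrocytes alone, had no low-count filter. In simulated data of the genotype comparison (200 changed genes) 52 were found at a log2 fold change of 0.5 and 184 at 1. For shares, the difference of means was set against every split of the mice (exact permutation test, two-sided). Sub-clusters came from scanpy 1.11.5 (2000 variable genes less mitochondrial genes and those with an unadjusted genotype p under 0.05, 20 components, 20 neighbours, Leiden resolution 0.3), and the genes of the rule stayed in. Positions are from GENCODE (GRCm38), promoters from RefSeq.

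Named genes were the 10 per direction of largest change among called genes with at least 10 CPM and no overlap of genotypes, called genes of the lists (or the 2 most abundant where none was called), the 5 of smallest p per direction in each interaction, and, for levels, the genes of the rule, patterning factors of at least 10 CPM and the 12 per direction furthest from the other astrocytes at 50 CPM or more with 1 direction in every mouse. Alternatives were RLE factors, no filter, DESeq2 1.42.0, stricter limits, doublet removal, age groups and blocks, and leaving out each mouse. Some genes of the lists are counted but not reported here by name.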

Additional observations from a re-analysis of the deposited data

Results flagged for a closer look

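Of 128 groups of 6 mice examined over the named genes, 10 held a mouse whose gap to its nearest neighbour was more than 0.625 of the range (Dixon's limit), where chance gives about 1 in 20 groups. Mutant 6 was that mouse in 6 of the 10. It had the highest level among mutants for *Exd1* (10.7 CPM, others 4.50 to 6.16), *Adra1a* (73.1 CPM, others 22.0 to 37.3), *Alpl* (22.0 CPM, others 8.23 to 12.9), *Slc30a10* (113.5 CPM, others 77.2 to 88.4) and *Heyl* (27.9 CPM, others 10.1 to 16.1), and the lowest for *Cd109* (1.78 CPM, others 6.57 to 8.62). Each of these 6 values was nearer to the control median than the median of the mutants was.

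The other 4 were each the highest value of their group. *Exd1* reached 21.8 CPM in control 3 (other controls 11.9 to 14.8), *Gm37679* 120 CPM in control 4 (62.7 to 83.9), *Enpp2* 156 CPM in control 4 (76.6 to 101) and *Nlrc5* 15.1 CPM in mutant 3 (other mutants 8.99 to 10.8).

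Against cortical astrocytes the genotype effect differed in 3 genes by the test of the interaction. The log2 difference was -1.92 for *Tafa1*, 3.16 for *Olfr1033* and -2.68 for *Scel*.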

How the results depend on the processing

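The 480 genotype calls in members became 477 with RLE factors, 595 with DESeq2, 564 without the low-count filter, 446 and 447 with the stricter astrocyte and sub-type sums, 484 under 5% mitochondrial UMIs and 471 without called doublets. They were 540 in the mice labelled 5 months and 2 in those labelled 4 months, mutant 6 among them. In the latter 478 of 478 genes kept their direction (median absolute log2 fold change 0.59). The calls were 254 to 878 when 1 mouse was left out. They were 254 without mutant 3, 271 without mutant 2, 294 without control 5, 316 without mutant 1 and 878 without mutant 6. Alternatives chosen after the data had been seen gave 515 in sub-clusters 1 to 3, 440 without telencephalic UMIs and 105 with the telencephalic-type share as covariate, and *Pdgfra* turned from -0.88 to 0.03 in sub-clusters 1 to 3. A replicate block for mice of the same number gave 605 calls and lost *Soat1*, *C1qa*, *Osmr* and *Ifit2* of the 62 named genes. It gave exact p = 0.0313 for both shares. Same-numbered mice deviated together in only some of 6 pairs (r = -0.063 to 0.285, across genes). Not every mouse correlated best with its own number, so the numbers were not taken as pairs. Mutants 5 and 6 correlated with controls 5 and 6 at r = 0.201 to 0.296, and with controls 1 to 4 at r = -0.317 to 0.0725. What these mice share was not tested. By the labels mice 1 to 4 of each number have the same age in both genotypes, as do mutant 5 with control 6 and mutant 6 with control 5, and a block for mice of the same age gave 554 calls and lost *Soat1* and *Osmr* of the 62 named genes. In the lists the replicate block called 4 identity, 6 vascular signal, 8 cholesterol, 3 metal, 3 patterning, 2 hypoxia and 2 tanycyte genes (*Dio2* and *Lhx2*), and DESeq2 called 5 identity, 4 vascular signal and 3 metal genes, where edgeR without a block called 1, 2, 2, 1, 0, 0 and 0. The interaction with telencephalic-type astrocytes gave 0 calls, 1 with RLE factors, 1 with DESeq2, 69 without the filter, 0 without the replicate block and 0 to 19 with 1 mouse left out. That with cortical astrocytes gave 3, 3 with RLE factors, 11 with DESeq2, 85 without the filter, 2 without the replicate block and 0 to 8 with 1 mouse left out. The difference in share of nuclei (1.35 points) was 0.986 and 0.823 with the stricter sums and 1.15 to 1.69 with 1 mouse left out. The causes of these changes were not tested. Depth of 1702003 to 2908002 UMIs per library limits genes of few CPM.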

Other observations

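Grouped with the genes that differ by genotype and the mitochondrial genes kept, a choice made after the data had been seen, 1429 members formed a cluster led by *Grm8*, a metabotropic glutamate receptor (355 against 99.8 CPM in the other members), *A2m* and 8 mitochondrial genes, such as *mt-Co1* (694 against 269 CPM). It made up 22.5 to 40.7% of members in mutants 1 to 5, 3.42% in mutant 6 and 2.41 to 4.93% in controls. A further cluster of 186 members was led by *Htr2c* (538 against 31.5 CPM) and held *Oasl2*, a gene of the interferon list (117 against 3.00 CPM). It made up 1.58 to 5.14% of members in mutants and 1.30 to 2.62% in controls, and its part in the interferon rise was not tested. Genes that differ by genotype were kept in this grouping, so the sizes of its clusters carry no test. The sub-clusters described above were formed without those genes and varied among mice of both genotypes.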
